A study of Drosophila melanogaster with 4 samples.

Results

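Narrow gaps are the short unenriched intervals that separate neighbouring regions of dimethylated lysine 36 of histone H3 (H3K36me2) on the chromosomes of the adult Drosophila melanogaster head. They were taken from the authors' region list for the replicate set: enriched regions on 2L, 3L, 3R, X and 4 were sorted by start, and each interval between consecutive regions below 1000 bp was a member. The members were thus selected on gap length, which is given below as a description. The rule gave 1595 narrow gaps of 4935 gaps between 4940 regions, or 32.3%.

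The mark is carried by nucleosomes in and around transcribed genes. In Drosophila the enzymes Mes-4 and Ash1 place the dimethyl form, while Set2 adds the trimethyl form during elongation by RNA polymerase II. Lysine 36 methylation is known to oppose the repressive methylation of lysine 27 on the same histone tail, and marked domains can lie next to repressed ones.

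ChIP-seq was performed on head nuclei of wild-type Oregon-R flies at the mixed adult stage, with 2 ChIP samples precipitated with an H3K36me2 antibody and 2 input DNA samples. All 4 samples share the strain, genotype and stage. Heads were collected with sieves, so the chromatin came from many cell types at once, and a mark present in fewer cells cannot be told apart from a weaker mark in every cell. Each ChIP replicate has its own region list (4773 regions in replicate 1 and 4695 in replicate 2 on these chromosomes), and the labels name an input for each. The labels do not say if the replicates are separate collections of flies. An exact test over 2 replicates cannot pass the usual threshold, so none was run, and differences are set against the spread between the replicates. The lists hold regions and scores without read counts, so depth is unknown.

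The narrow gaps were short relative to the regions around them. Their median length was 383 bp, with the middle 50% between 171 and 647 bp, while the median region measured 3805 bp. The count per 100 bp of length was highest for the shortest gaps: 228 gaps measured 0 to 99 bp, 228 measured 100 to 199 bp, and 106 measured 900 to 999 bp. Outside the rule, 105 gaps measured 1000 to 1099 bp, 59 measured 1100 to 1199 bp and 61 measured 1900 to 1999 bp, so the counts did not break at the limit itself. Lengths down to 0 bp occurred, that is, regions that abut without a base between them, and the list shows no minimum distance below which neighbours were joined. Together the narrow gaps held 671 kb.

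The same rule gave 1312 narrow gaps in replicate 1 and 1352 in replicate 2, with medians of 399 and 414 bp. Both replicates also had more gaps below 100 bp (201 and 209) than between 900 and 999 bp (104 and 99). The narrow share of all gaps was 28.2% ± 0.927 (SD, n = 2) in the replicates, below the 32.3% of the replicate-set list.

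**Figure D1:**
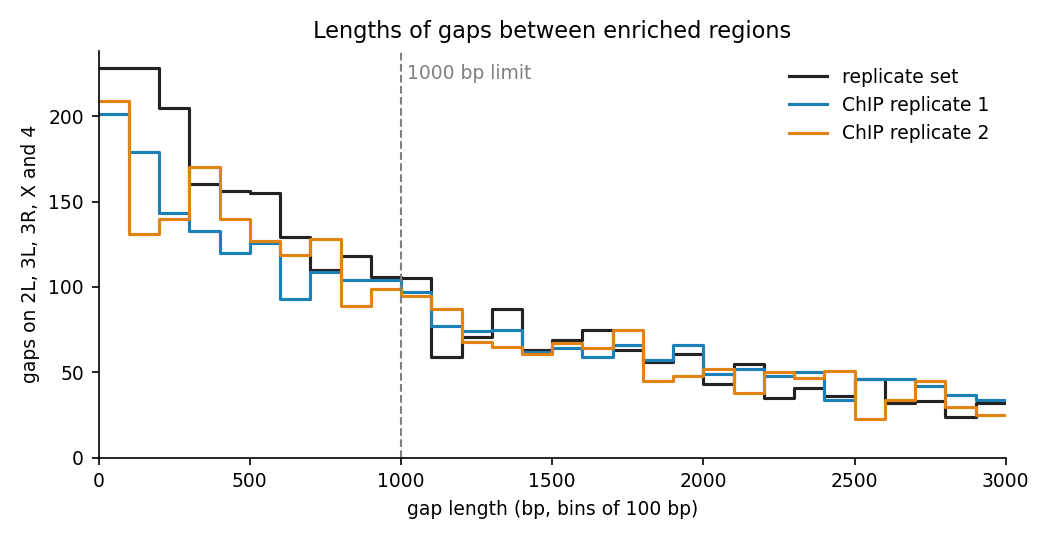
Number of gaps on 2L, 3L, 3R, X and 4 (vertical axis) by gap length in bins of 100 bp (horizontal axis) in the replicate-set list and in each ChIP replicate list; the dashed line is the 1000 bp limit. The shortest class holds 228, 201 and 209 gaps in the replicate set, replicate 1 and replicate 2, and the bins on either side of the limit hold 106 and 105 gaps in the replicate set.

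At the limit the members and non-members differed by a few bases. The 3 longest members were 3R 18311727 to 18312725 (999 bp), 2L 10328360 to 10329354 (995 bp) and 3R 6700997 to 6701987 (991 bp). The 3 shortest gaps outside the rule were 3L 4291412 to 4292411 and 2L 18854951 to 18855950, both of 1000 bp, and 3R 11168772 to 11169772 (1001 bp). Positions here and below are in FlyBase release 5, as the lists give them. What genes lie at these positions is not given, because the gene table used here describes another release.

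Each narrow gap was looked up in the replicate lists. It was called open where at least 1 bp lay outside every region of that replicate, and closed where every base was covered. An open gap was then called narrow or wide, by whether the replicate's own gap at that place was below 1000 bp. The replicate-set list belongs to the same ChIP samples, so the lookup describes how the lists relate and is not an independent test.

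Of the 1592 narrow gaps with at least 1 bp, 1560 were open in both replicates (98.0%), and 0 were closed in both. Among all 4932 gaps of any length above 0 the open share was 99.4%, so being open is no property of the narrow ones. The replicates differed more in the width of the gap. A gap below 1000 bp was present in both replicates for 694 members (43.6%), against 14.1% of all gaps, a background that the choice of short gaps sets. Another 366 were narrow in 1 replicate and wide in the other, 500 were wide in both, and 32 were closed in 1 replicate. The remaining 3 members had a length of 0 bp and no base to look up.

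Recurrence as a narrow gap depended on length near the limit and hardly below it. Between 51.3 and 53.5% of the members were narrow in both replicates in the classes of 0 to 99, 100 to 249 and 250 to 499 bp. The share was 43.7% at 500 to 749 bp and 12.0% at 750 to 999 bp. Closure in 1 replicate was concentrated in the shortest class, which held 28 of the 32 cases. A short gap needs fewer covered bases to count as closed.

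**Figure D2:**
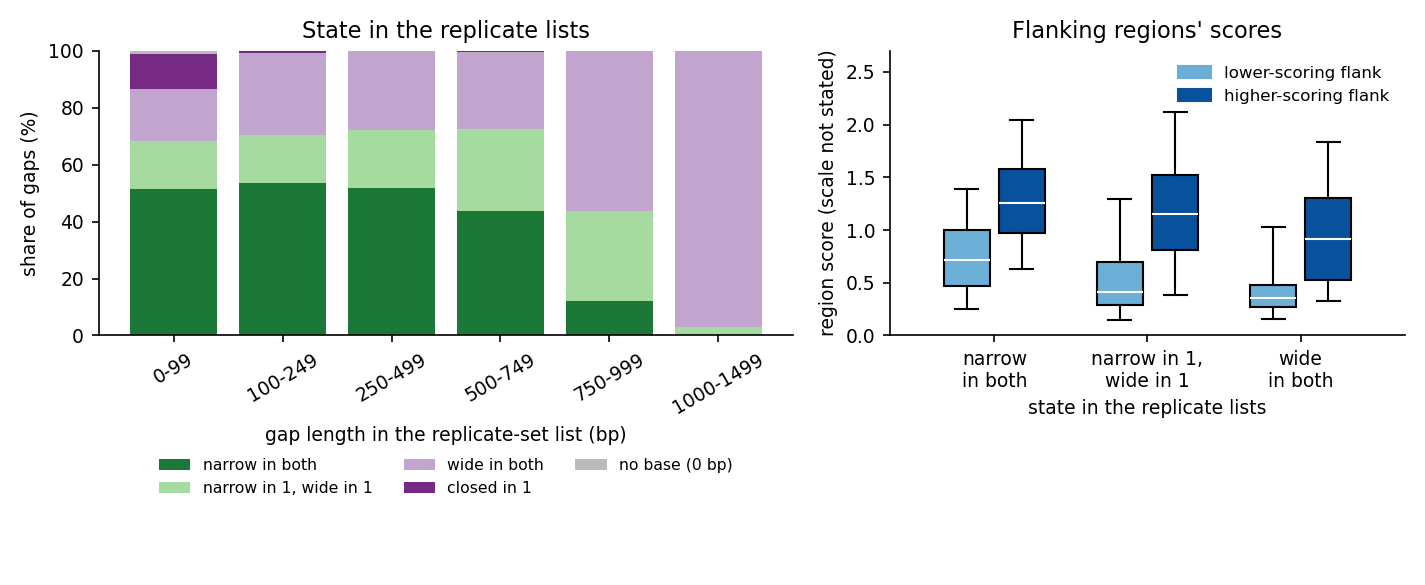
Left: share of gaps (vertical axis, %) by state in the replicate lists for classes of gap length in the replicate-set list (horizontal axis, bp), the last class lying outside the rule. Right: authors' scores of the lower-scoring and higher-scoring flanking region of each narrow gap (boxes, middle 50% with the median; whiskers, 5th to 95th percentile) by state in the replicates. The share narrow in both is 51.3% for the shortest class and 12.0% at 750 to 999 bp, and the lower-scoring flank has a median of 0.717 for gaps narrow in both and 0.358 for gaps wide in both.

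In the 694 gaps narrow in both replicates, both replicate gaps touch the same set gap and are below 1000 bp by selection, which largely fixes that they lie close together. Their midpoints differed by a median of 55.8 bp, with 73.3% within 100 bp. The bases open in all 3 lists measured 282 bp at the median. In length the replicates were less alike. Replicate 1 had a median of 526 bp, replicate 2 of 464 bp and the set of 298 bp for the same gaps, and the median difference between replicates was 119 bp. Across these gaps the Spearman rho of the replicate lengths was 0.67 (Pearson's r 0.66), as a description over gaps that share 2 libraries and a common upper limit. In 620 of the 694 both replicate gaps were longer than the set's gap, and in 0 were both shorter. The set list also covered more of these chromosomes as a whole, 26.7% against 24.0% in each replicate.

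The 5 shortest of these recurrent gaps measured 1 to 6 bp in the set. A single base, 3L 3216968, separated a region of 15593 bp scoring 2.05 from one of 4394 bp scoring 0.647, where replicate 1 had a gap of 233 bp and replicate 2 one of 226 bp. The next were X 6004730 to 6004733 (4 bp, with 76 and 432 bp in replicates 1 and 2) and 2L 2369622 to 2369626 (5 bp, with 187 and 221 bp). They were followed by 3L 22710532 to 22710536 (5 bp, with 88 and 152 bp) and 3R 23079247 to 23079252 (6 bp, with 76 and 85 bp). Being picked as the shortest in the set, these 5 had little room to be shorter in a replicate.

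The shortest gap of a chromosome was not always of this kind. On 2L it was 18857952 to 18857955, 4 bp, between regions of 2001 and 1396 bp with scores of 0.354 and 0.288. Replicate 2 had a gap of 72 bp there, while replicate 1 had none of the right-hand region and its gap ran over 56957 bp. On X the shortest was 7631311 to 7631313 (3 bp), wide in replicate 1 with 1039 bp and narrow in replicate 2 with 516 bp. The 2 bp gap of the 4th chromosome, 887655 to 887656, was a gap of 252 bp in replicate 1 and closed in replicate 2. On 3L and 3R the shortest were abutting pairs of regions, the named one of each arm meeting after 3L 18821323 and 3R 25874014.

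A gap that was wide in a replicate often lacked one of its flanking regions there. Of the 742 members wide in replicate 1, 439 (59.2%) had a flank with no overlapping region in that replicate, and of the 640 wide in replicate 2, 404 (63.1%) did. Where both flanks were present, the median replicate gap was not far past the limit, at 1311 bp in replicate 1 and 1224 bp for replicate 2. Several members could share a single replicate gap: the 742 lay in 641 distinct gaps of replicate 1, and the 640 in 544 of replicate 2. Of the 500 wide in both, 318 lacked a flank in both replicates, 37 in 1, and 145 in neither.

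The missing flanks were short and low in score. The members had 2625 flanking regions, of which 2146 (81.8%) overlapped a region in both replicates and 264 (10.1%) in neither. Median length was 1277 bp among the 264, against 4608 bp among those present in both, and the median scores were 0.330 and 0.981. Of the 264, 142 were shorter than 1301 bp, the shortest region of either replicate list, while the set list holds regions down to 1001 bp. The part of this difference between the lists in the missing flanks was not tested. Among the 2315 regions with no narrow gap on either side 9.94% were likewise in neither replicate, a share close to that of the flanks.

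The reverse lookup started from the gaps below 1000 bp of each replicate, chosen by the same length limit. Of the 1310 narrow gaps of replicate 1 with at least 1 bp, 1023 (78.1%) were open in replicate 2, against 93.4% of all its gaps. Of the 1347 of replicate 2, 1134 (84.2%) were open in replicate 1, against 95% of all its gaps. They were narrow in the other replicate in 64.7% and 63.0% of cases, beside 21.5% and 20.4% of all gaps of replicates 1 and 2, a background that the choice of short gaps again sets. Closure fell with length. In replicate 1 63.3% of gaps of 1 to 99 bp were closed in replicate 2, and 5.66% of those of 750 to 999 bp. For replicate 2 the shares closed in replicate 1 were 44.6% and 6.83%.

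The replicate-set list, which covered 26.7% of these chromosomes against 24.0% in each replicate, closed more of the replicates' gaps than the other replicate did. It closed 469 narrow gaps of replicate 1 (35.8%) and 404 of replicate 2 (30.0%), leaving 88.9% and 90.3% of all their gaps open. Nearly every gap that the other replicate closed was also closed in the set: 282 of 287 for replicate 1 (98.3%) and 209 of 213 for replicate 2 (98.1%). Gaps open in both replicates were closed in 187 of 1023 cases (18.3%) and 195 of 1134 cases (17.2%). Those closed by the set were the shorter ones: their median was 193 bp in each replicate, and the ones still open in the set had medians of 537 bp (replicate 1) and 509 bp (replicate 2). A narrow gap of the set was thus nearly always open by at least 1 bp in both replicates, though narrow in both for 43.6% only. A short gap of 1 replicate was often closed in the set. The labels and file headers do not say how the set was built from the replicates.

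**Figure D3:**
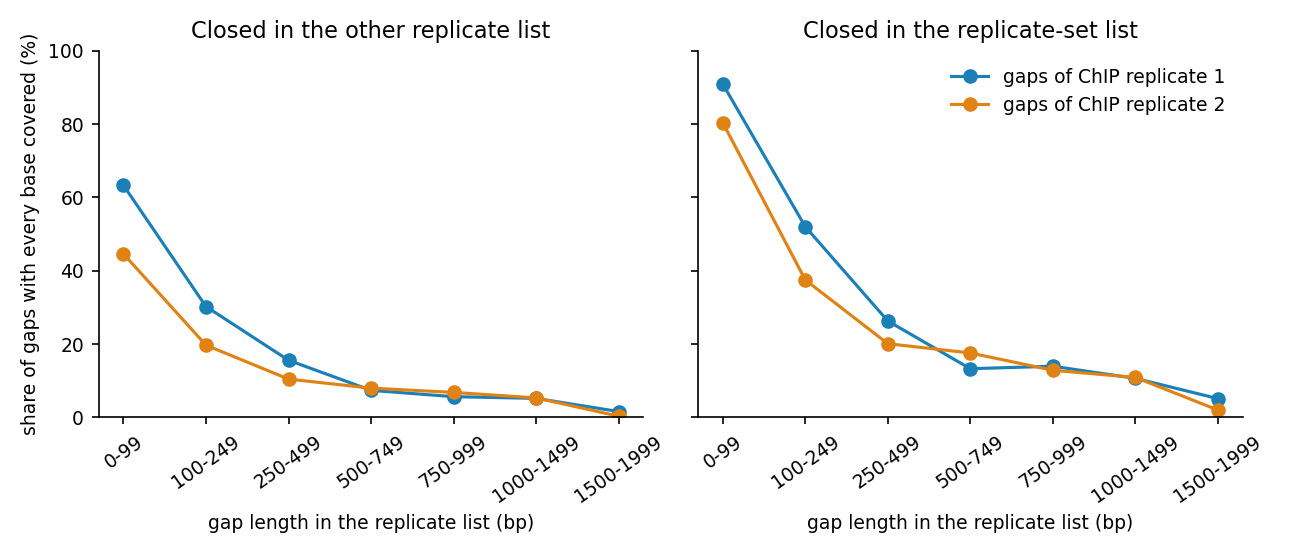
Share of the gaps of each replicate list (vertical axis, %) of which every base was covered by regions of the other replicate (left) or of the replicate-set list (right), by gap length (horizontal axis, bp); gaps of 0 bp are left out. The share falls from 63.3 and 44.6% for the shortest class to 5.66 and 6.83% at 750 to 999 bp on the left, and the shortest class stands at 91.0 and 80.4% on the right.

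The regions on either side of a narrow gap were slightly lower in score than those beside longer gaps. The lower-scoring flank had a median of 0.489 at narrow gaps and 0.555 at gaps of 1000 bp or more in the set. In replicate 1 these medians were 0.690 and 0.725, and in replicate 2 0.660 and 0.722. The higher-scoring flank followed the same order, with 1.14 and 1.21 in the set, 1.28 and 1.32 in replicate 1, and 1.24 and 1.31 in replicate 2. Lengths differed little, the shorter flank measuring 2353 bp at narrow gaps and 2505 bp at longer ones in the set.

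A narrow gap did not join regions of like strength. The Spearman rho between the scores of the left and right flank was 0.054 across narrow gaps and 0.048 across gaps of 1000 bp or more. For flank lengths it was 0.062 and 0.053. These are descriptions over gaps of 1 list, in which a region can flank 2 gaps. The flanks of a narrow gap differed in score by a median of 0.452, against 0.475 at longer gaps.

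Regions with a narrow gap on both sides were shorter and lower in score than regions with none in each list. The 565 regions of the set between 2 narrow gaps measured 3578 bp at the median and scored 0.759, against 3857 bp and 0.874 among the 2315 regions with none. In the replicates such regions measured 3407 bp ± 105 with a score of 0.903 ± 0.0180 (SD, n = 2), against 3696 bp ± 73.9 and 1.00 ± 0.00763 (SD, n = 2) for regions with none. Both differences were larger than the replicate SD. Regions with 1 narrow gap had 3695 bp ± 55.2 and 0.998 ± 0.0109 (SD, n = 2), within the replicate spread of regions with none. Over all flanking regions the difference was small: the median length differed by -61.3 bp ± 58.3 and the median score by -0.0218 ± 0.0217 (SD, n = 2), about the size of the spread. Compared within 20 classes of region length, the score difference was -0.0376 in replicate 1, -0.0397 in replicate 2 and -0.0274 in the set. Over all chromosomes together, the flanking regions at like length thus scored lower in both replicates by more than the replicates differed. By chromosome, without length classes, the difference was negative in both replicates on 2L and 3L only. In replicates 1 and 2 it was 0.0434 and -0.0554 on 3R, -0.00157 and 0.0132 on X, and -0.143 and 0.117 on the 4th chromosome.

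Strong regions could also be split. Of the narrow gaps, the one whose lower-scoring flank scored highest was 2L 22885436 to 22886325, 890 bp between regions scoring 2.64 and 2.24. Replicate 1 had 1472 bp there and replicate 2 had 1380 bp, so the gap was wide in both. Next was X 17029769 to 17030216, 448 bp between regions scoring 1.96 and 2.23, with 643 and 485 bp in replicates 1 and 2. At 3L 8465320 to 8465515 a gap of 196 bp lay between regions scoring 1.89 and 2.19, with 624 and 589 bp in the replicates. The 295 bp gap X 6712805 to 6713099, between scores of 1.97 and 1.89, measured 665 and 561 bp. The 341 bp gap 2L 3068268 to 3068608, between scores of 2.06 and 1.83, measured 286 bp in replicate 1 and 1924 bp in replicate 2. Of these 5 gaps, 3 were narrow in both replicates.

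Regions joined by narrow gaps were grouped into stretches, called runs below. Narrow gaps linked 2625 of the 4940 regions (53.1%) into 1030 stretches, of which 660 held 1 narrow gap, 247 held 2 and 123 held 3 or more. With 32.3% of all gaps narrow, some lie side by side through their number alone. Whether narrow gaps cluster beyond that was not tested. The stretches had a median span of 11.7 kb, against 3.86 kb for the 2315 regions that stood alone. A longer span follows from the grouping, because a stretch joins several regions by definition. The narrow gaps made up 4.58% of the 14.6 Mb that the stretches spanned. In the replicates the number of stretches was lower, 918 and 921, and the gaps took 4.96% and 4.98% of their span.

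The run with the most narrow gaps was on 2L, 6654770 to 6688975, with 9 regions and 8 narrow gaps of 104 to 800 bp over 34.2 kb. Its region scores ran between 0.203 and 1.73. Of the 8 gaps, 2 were narrow in both replicates. The first 2 fell into a single gap of 1669 bp in replicate 1 and of 4849 bp in replicate 2, and the fifth and sixth into gaps of 2925 and 2857 bp, the region between each pair being absent from both replicate lists. A run on 3R, 23750282 to 23787824, was more stable, with 5 of its 7 gaps narrow in both. Its shortest gap, of 78 bp, was 172 bp long in replicate 1 and 167 bp long in replicate 2.

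In the other 3 of the 5 runs with the most narrow gaps, ties being ordered by span, most gaps were narrow in both replicates. On 2L 10411804 to 10452206, 4 of 7 gaps were narrow in both replicates, and the other 3 fell into a single gap, 3200 bp long in replicate 1 and 3091 bp long in replicate 2. On 3L 1512576 to 1568923, 4 of 6 were, over 56.3 kb with scores between 0.248 and 2.35. The run at 3R 8495887 to 8542001 had 4 of 6, with every region scoring at least 0.824 and every gap at least 445 bp long. Both runs of high-scoring regions and runs with low-scoring regions in them occurred.

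**Figure D4:**
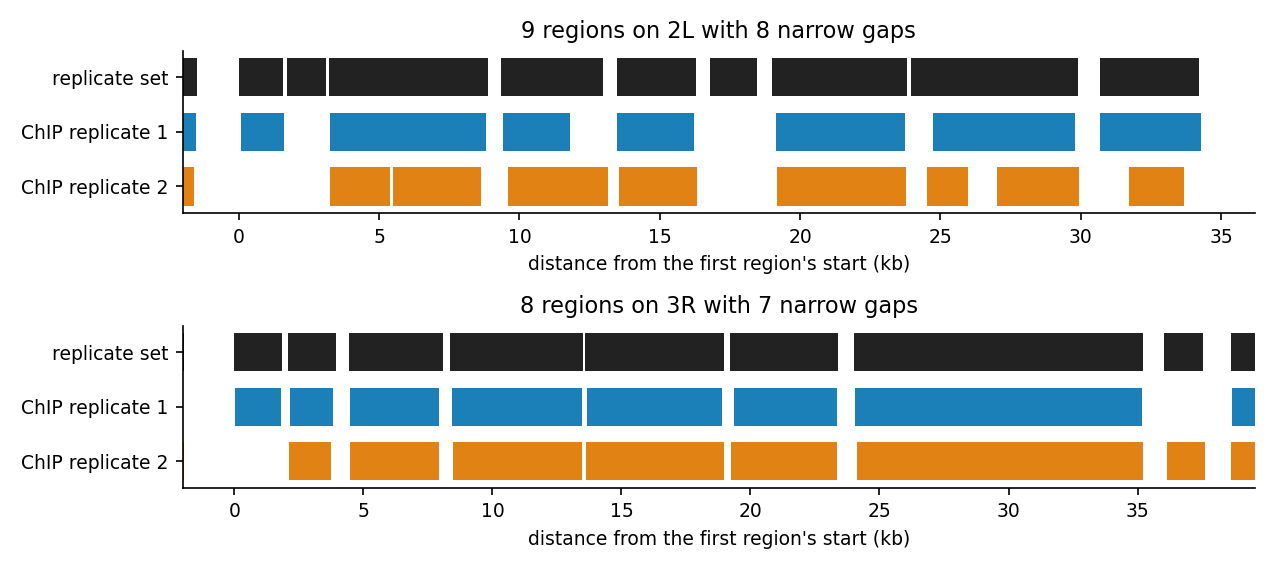
Enriched regions (bars) of the replicate-set list and both ChIP replicate lists along the run on 2L with 8 narrow gaps and the run on 3R with 7, against the distance from the start of the first region (kb). On 3R 5 of the 7 gaps recur as narrow gaps in both replicates, and on 2L 2 of the 8 do.

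The narrow share of gaps was similar on most chromosomes. X had 375 narrow of 1211 gaps in the set (31.0%) and the 4th chromosome 55 of 146 (37.7%). The autosomal arms had 32.0% on 2L (327 of 1022), 31.8% on 3L (372 of 1171) and 33.6% on 3R (466 of 1385). Narrow gaps per covered Mb of the set numbered 64.2 for X and 67.8 for the 4th chromosome, against 58.9 for 2L, 3L and 3R together. In the replicates the values per covered Mb were 55.5 ± 4.02 for X and 50.8 ± 3.13 for the 4th chromosome, against 56.2 ± 0.170 for 2L, 3L and 3R (SD, n = 2), so neither was higher there on average. The narrow share of the 4th chromosome was 27.0% in replicate 1 and 31.2% in replicate 2, against 28.8 and 29.2% on 2L, 3L and 3R. It was lower in replicate 1 and higher in replicate 2, a mean difference of 0.0596 percentage points ± 2.71 (SD, n = 2). Per Mb of chromosome it did have more narrow gaps, 27.0 ± 2.62, against 13.4 ± 0.0375 (SD, n = 2), beside a covered share of 53.1% against 23.8%.

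Among the large arms 3R had the highest narrow share in each list, at 31.6% ± 0.862 in the replicates, against 27.6% ± 0.161 on 2L and 27.3% ± 0.323 on 3L (SD, n = 2). The distance of 3R from these 2 arms exceeded the replicate SD. The covered share was also highest on 3R, at 25.3% ± 0.249, against 22.5% ± 0.0599 on 2L, 23.4% ± 0.0867 on 3L and 22.9% ± 0.559 on X (SD, n = 2). X had 23.5% in replicate 1 and 27.3% in replicate 2, a mean difference from 2L, 3L and 3R of -3.64 percentage points ± 2.48 (SD, n = 2). It was lower in both replicates, but the replicates differed more on X than on any of 2L, 3L and 3R.

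That difference between the replicates on X also showed when the set's gaps were looked up. Of the 375 narrow gaps on X, 151 (40.3%) were narrow in replicate 1 and 219 (58.4%) in replicate 2. On 2L, 3L and 3R together the shares were 57.2 and 59.0%, so X was close to the autosomal arms in replicate 2 and below them in replicate 1. Members wide in replicate 1 and narrow in replicate 2 numbered 91 on X, and 21 were the reverse. The 4th chromosome had 10 and 1. On 2L the counts leaned the same way to a smaller extent, at 45 and 29, while 3L had 37 and 36 and 3R had 50 and 46. Narrow in both replicates were 33.9% of the members on X and 32.7% on the 4th chromosome, against 47.2% on 2L, 3L and 3R.

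The shift on X lay in the width of gaps as well as in missing regions. Among members with both flanks present in both replicates, the gap on X was longer in replicate 1 than in replicate 2 in 156 of 206 cases (75.7%), by a median of 178 bp. On 2L, 3L and 3R it was longer in replicate 1 in 434 of 810 cases (53.6%), by a median of 20.5 bp. On the 4th chromosome this was so in 23 of 28 cases (82.1%), with a median of 133 bp. Longer gaps went the same way to a smaller extent: on X those of 1000 bp or more were longer in replicate 1 in 60.8% of 544 cases, with a median difference of 69 bp. On 2L, 3L and 3R this was 43.1% of 1702 cases, with a median difference of -33 bp. Of the 375 members on X, 136 were wide for lack of a flank in replicate 1 and 108 in replicate 2. On the 4th chromosome the counts were 24 and 18 of 55. They were 279 and 278 of 1162 on 2L, 3L and 3R, a smaller share than on X in both replicates. These arms differed among themselves, with 93 and 72 on 2L, 95 and 103 on 3L and 91 and 103 on 3R. The excess of missing flanks in replicate 1 was thus seen on 2L too and was not particular to X. Regions covered 22.5% of X in replicate 1 and 23.2% in replicate 2, with median region lengths of 3208 and 3468 bp, while the autosomal medians were 3753 and 3756 bp. What set X and the 4th chromosome apart in replicate 1 was not tested.

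**Figure D5:**
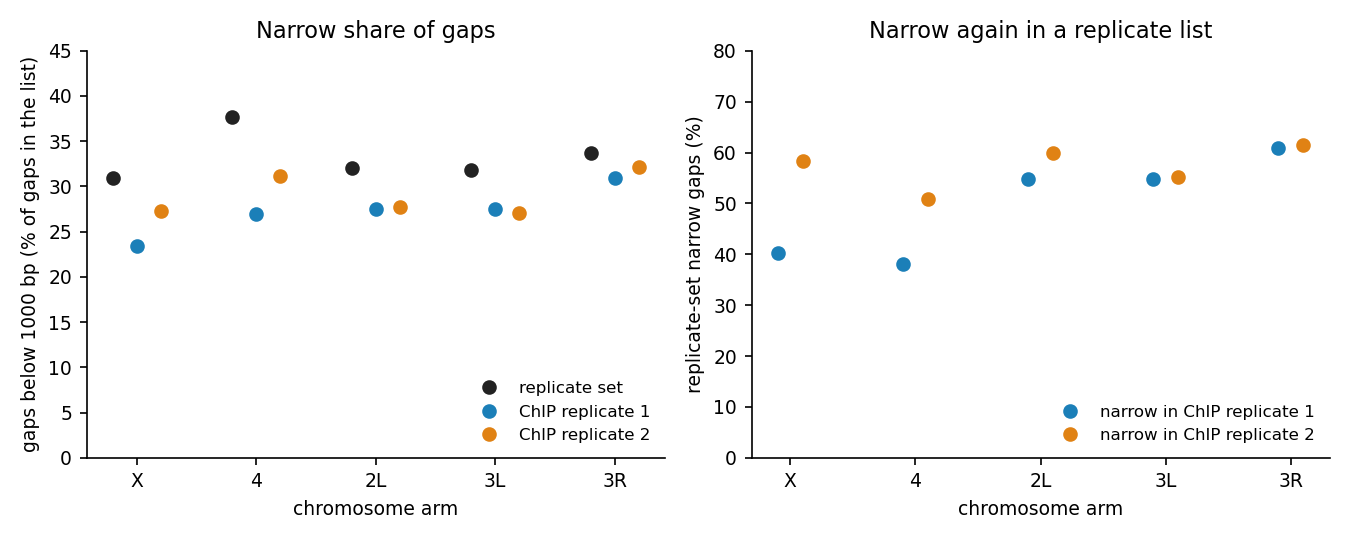
Left: gaps below 1000 bp as a share of all gaps of a list (vertical axis, %) on X, the 4th chromosome, 2L, 3L and 3R, in each of the 3 lists. Right: share of the replicate-set narrow gaps (vertical axis, %) that were narrow again in replicate 1 or replicate 2. On X the points at the right stand at 40.3% for replicate 1 and 58.4% for replicate 2, and on 3R at 60.9 and 61.5%.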

How the data were processed

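The authors deposited enriched regions as separate lists for both ChIP replicates and their replicate set, in FlyBase release 5 coordinates per the file headers. The submitters' processing notes name Bowtie 0.12.7. For the caller, its thresholds and the way of combining replicates, nothing was given in the sources used here. The deposited score of a region has no stated scale and was used within a list. Start and end positions are the other deposited values.

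Gap length was the next start minus the previous end minus 1. The members, gap lists and comparisons were chosen with earlier results of these data known. Named gaps were the shortest of each chromosome, the 5 shortest narrow in both replicates, the 3 on either side of 1000 bp, those of the 5 runs with the most narrow gaps (ties by span), and the 5 with the highest lower flank score. Means are given with the SD of the 2 ChIP lists; no test was run. The lookup of gaps was checked on simulated lists. Input values and 2R were not analysed here. Python 3.11.15, NumPy 2.4.6, pandas 2.3.3, SciPy 1.17.1 and matplotlib 3.10.9 were used. Alternatives were other limits, the higher-scoring 50% of regions, stricter lookups, length classes and leaving out a replicate.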

Additional observations from a re-analysis of the deposited data

Results flagged for a closer look

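Regions beside a narrow gap were longer than other regions on 3R in both replicates and shorter on 2L, 3L and X in both. The mean difference in median length was 244 bp on 3R, -153 bp on 2L, -226.5 bp on 3L and -179 bp on X. The differences between these arms were -397 bp for 2L minus 3R, -470.5 bp for 3L minus 3R and 423 bp for 3R minus X. They were picked out because every replicate moved one way on 3R and the other way on the second arm, and the difference was not tested. On 5 sequences outside the rule (2LHet, 3LHet, 3RHet, XHet and U) the replicate-set list held 36 narrow gaps of 196 gaps, or 18.4%. The replicate lists held 33 of 149 and 33 of 158 there.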

How the results depend on the processing

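Of 32 alternatives over 6 results, 19 stayed within 1.5 times for a count or, for a value, within the replicates' SD, 12 moved further and 1 reversed. The narrow gaps of the set numbered 977 below 500 bp and 395 among the higher-scoring 50% of regions; both have fewer gaps by construction. The share open in both replicates was 96.0% when 50% of a gap had to be open and 65.6% when both flanks had to be present. It was 43.6% when the replicate gap had to be narrow. By construction these stricter lookups can only lower the share. Leaving out a replicate can, by construction, only raise it, and gave 98.8 to 99.2%. Below 500 bp the share was 96.8%. The difference of the 4th chromosome from 2L, 3L and 3R was 5.11 points in the set and 6.91 below 2000 bp. It was -6.72 among the higher-scoring 50% and -1.86 to 1.98 when a replicate was left out, against 0.0596 in the main result. That main value lay within the replicate SD of 2.71, and its changes of sign were not counted as reversals. For X the difference was 0.428 among the higher-scoring 50%, against -3.64, and -5.39 to -1.88 when a replicate was left out. The score difference of flanking regions was -0.0454 in the set and -0.0372 to -0.00645 when a replicate was left out. Where no construction is named, the cause was not tested. No paired analysis was possible because the 2 ChIP lists belong to a single group and inputs have no lists here. Without read counts, an interval left out of a list may hold signal below the caller's threshold.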

Other observations

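Narrow gaps were spread along the arms unevenly. In 194 windows of 500 kb on X, 2L, 3L and 3R the set held between 0 and 27 narrow gaps, with a median of 8, and 4 windows had none. Gaps of any length were uneven too, between 4 and 58 per window, and the 4 windows without a narrow gap held 4 to 7. Whether narrow gaps were more uneven than all gaps was not tested. Windows with more covered sequence had more of them (Spearman rho 0.72 across windows of 1 list, as a description). The replicate counts differed by a median of 1 and at most 10 gaps in a window. Both windows below were picked for their values. The window 2L 10000001 to 10500000 had the most, with 27 of 56 gaps narrow in the set, 21 of 55 in replicate 1 and 23 of 58 in replicate 2. In X 15500001 to 16000000 the set held 19 of 58, replicate 1 held 4 of 46 and replicate 2 held 12 of 49.

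The replicate run with the most narrow gaps was on 3R, 23752418 to 23800245, with 8 narrow gaps over 47.8 kb in replicate 2.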
